A study of Mus musculus with 12 samples.

Results

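Collagen receptors are the proteins by which a cell binds, senses and takes up collagen. The 8 genes described here are 4 integrin α subunits with an inserted collagen-binding domain (Itga1, Itga2, Itga10 and Itga11), their only β partner (Itgb1), both discoidin domain receptor kinases (Ddr1 and Ddr2) and Mrc2, an endocytic receptor also known as Endo180. They were chosen by name from the 56748 genes of the count table and each matched 1 row. An integrin reaches the surface as a pair of α and β subunits, and its α subunit holds collagen through a metal ion in the inserted domain. The discoidin domain receptors are tyrosine kinases that bind triple-helical collagen without integrins, and Mrc2 carries collagen fragments to the lysosome. In fibroblasts these receptors are known for adhesion to type I collagen, for the contraction of collagen gels and for matrix turnover.

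The 12 RNA-seq libraries all came from 1 mouse line of mesenchymal cells, 10T1/2 (CH310T1/2 in the sample labels), with 4 for each of 3 groups. All cells were serum-starved overnight, kept in suspension for 1 h and plated in 0.5% serum for 18 h on hydrogels of 12 kPa that carried 0.05 mg/ml type I collagen. The col1 group had collagen alone, the col1-ACLP group had 30 nM recombinant aortic carboxypeptidase-like protein (ACLP, a secreted collagen-binding protein) in the collagen, and the col1-ACLP+SB group had the same ACLP and 5 µM SB431542, an inhibitor of the TGFβ receptor kinase ALK5, from seeding. No group had SB431542 on collagen alone, so what the inhibitor does without ACLP cannot be told apart here.

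Counts per library ran from 29246154 to 52201922. Of 12 mesenchymal markers, 11 were tested, and Fap, a fibroblast protease, was at 0 counts in all libraries. On col1-ACLP, 2 of the 11 rose against col1, Col1a1 (log2 fold change 0.82) and Col1a2 (0.65), and 5 fell, with the largest falls for Pdgfra (-0.76) and S100a4 (-0.50). Of markers of other cells, Epcam (epithelial), Cldn5 (endothelial), Adgre1, Cd3e and Tyrobp (immune), Gp6 (platelet) and Sox10 (glial) were at 0. The summed level of 8 endothelial genes was from 7.73 to 13.1 CPM (read counts relative to library size, scaled by the TMM method) on col1, from 21.2 to 23.1 with ACLP and from 13.3 to 16.4 with ACLP and SB431542, most of it from Erg and Tek, with Kdr and Tie1 at means under 0.1 CPM. Of the 3 endothelial genes tested, Erg rose on col1-ACLP (log2 fold change 1.98) and on col1-ACLP+SB (1.53) against col1, and Tek was lower on col1-ACLP+SB than on col1-ACLP (-0.86, adjusted p = 0.0116, edgeR). The summed level of 7 cartilage genes was from 1545 to 1737, from 3677 to 4780 and from 3005 to 3588 CPM in the same order, with Acan at 0. Of the 5 cartilage genes tested, Col2a1 (1.80), which carries most of the sum, Sox9 (0.27) and Col9a1 (0.48) rose on col1-ACLP and Col11a2 (-0.19) fell. In the same order of groups the sums were 13.8 to 15.9, 9.93 to 11.8 and 13.2 to 14.6 CPM for 6 platelet genes, 1 of which fell on col1-ACLP (Itga2b, -0.45), and 11.5 to 15.8, 16.3 to 20.7 and 16.0 to 17.7 CPM for 7 glial and neural genes, 1 of which rose (Tubb3, 0.81). They were 10.00 to 11.2, 6.31 to 10.3 and 7.81 to 12.8 CPM for 9 immune genes, 1 of which fell (Cd68, -0.49), and 3.19 to 4.77, 3.02 to 5.41 and 2.68 to 4.09 CPM for 10 epithelial genes, none of which passed. The part of these genes in the results for the receptors was not tested. The col1 replicate 2 library stood furthest from its group, with a root mean square deviation of 0.595 in log2 CPM against 0.369 to 0.481 for the other 11. Without it the calls of 2 receptor genes changed, Itga10 in col1-ACLP and Itga11 in col1-ACLP+SB, each against col1.

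The 4 α subunits share the stretch that holds the metal ion. It is shown because it is the part of each gene by which its product binds collagen, and because it shows how far the 4 transcripts differ in sequence. The coding sequence is printed from the transcripts of the GENCODE annotation of GRCm39, with the 5 codons of the metal ion-dependent adhesion site in capitals and 12 codons on either side.
Itga1: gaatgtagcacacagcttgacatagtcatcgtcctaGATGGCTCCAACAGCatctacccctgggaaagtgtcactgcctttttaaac
Itga2: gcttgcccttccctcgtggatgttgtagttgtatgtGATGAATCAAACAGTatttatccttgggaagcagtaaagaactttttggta
Itga10: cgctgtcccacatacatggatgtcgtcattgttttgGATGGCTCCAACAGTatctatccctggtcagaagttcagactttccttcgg
Itga11: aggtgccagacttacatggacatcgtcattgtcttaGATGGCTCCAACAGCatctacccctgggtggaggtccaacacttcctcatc

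In each gene all but the leading base of this stretch lies in exon 6, at chr13:115166614-115166699 for Itga1 and chr13:115017127-115017212 for Itga2 on the minus strand, and at chr3:96556348-96556433 for Itga10 and chr9:62642551-62642636 for Itga11 on the plus strand. The leading base is the last of exon 5 in all 4 genes. The capitals of Itga1 and Itga11 are identical over 15 bases, those of Itga10 match either in 14, and those of Itga2 match Itga1 and Itga11 in 11. Over the 87 bases, Itga10 and Itga11 are the closest pair with 62 identical bases, and Itga1 and Itga2 the most distant with 46. Over the whole coding sequence, identical bases in the 6 pairs of α subunits amounted to 50.8% to 54.3% of the longer sequence. For Ddr1 and Ddr2 they amounted to 60.3%.

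The receptors' levels spanned a far wider range than the conditions moved any of them. Levels were compared per length, as CPM per kb of the gene length in the count table. Itgb1 was the highest in every library, at a mean of 246 CPM per kb (range 225 to 268 over 12 libraries), above 99.3% of tested genes. Ddr2 followed with 68.2 CPM per kb (60.8 to 77.8), then Mrc2 with 61.3 (55.0 to 68.3) and Ddr1 with 45.5 (40.7 to 49.9). The ranges of Ddr2 and Mrc2 overlap, although Ddr2 was above Mrc2 in each of the 12 libraries. Next in order, and at least 16.6 times below Ddr1 in every library, was Itga1 with 2.00 CPM per kb (1.59 to 2.53). Itga10 had 1.22 CPM per kb (0.861 to 1.83), Itga11 0.333 (0.0815 to 0.709) and Itga2 0.0142 (0 to 0.0343). Itga1 was above Itga10 in 11 of 12 libraries, and the ranges of that pair overlap. The table's length of a gene can be above or below that of the transcript made. The levels were therefore also taken per kb of 1 coding GENCODE transcript per gene, an alternative chosen after seeing the data. Itgb1, with 4081 bases in the count table and 5011 in the transcript, was then at 201 CPM per kb (183 to 218). The order of the 8 genes was the same, but Itga1 was then at 3.34 CPM per kb (2.66 to 4.22) and above the range of Itga10 (0.885 to 1.88), and at least 11.7 times below Ddr1.

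**Figure D1:**
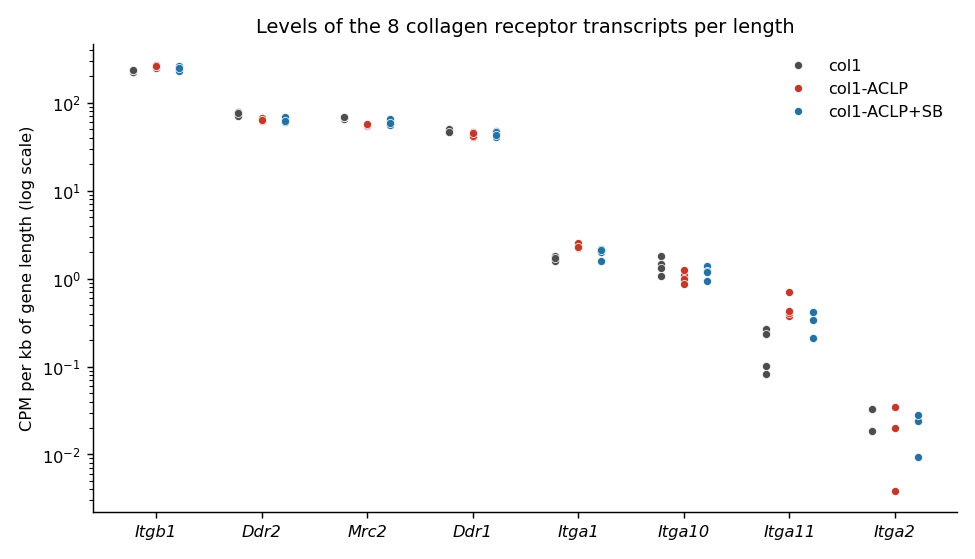
Levels of the 8 collagen receptor transcripts in CPM per kb of gene length on a log axis, 1 point per library, coloured by group (4 libraries each). Itgb1 lies between 225 and 268 in every library and Itga11 between 0.0815 and 0.709, and the 4 libraries with Itga2 at 0 counts cannot be drawn on this axis.

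The summed level of the 4 collagen-binding α subunits, per kb of gene length, was 1.43% ± 0.147 (SD, n = 4) of that of Itgb1 for col1, 1.48% ± 0.131 for col1-ACLP and 1.43% ± 0.0404 for col1-ACLP+SB. Per kb of 1 coding transcript it was 2.38% ± 0.205, 2.56% ± 0.184 and 2.43% ± 0.0997, so the size of the share depends on the length used. The other 8 α partners of Itgb1, again per kb of gene length, summed to 37.5% ± 0.278, 35.2% ± 1.495 and 36.1% ± 0.764 of it. The collagen-binding subunits thus made up 3.68% ± 0.346, 4.04% ± 0.326 and 3.82% ± 0.175 of the 12 α partners. The ranges of these shares overlap between the groups for the 4 subunits, and the mix among them differed more. Itga1 made up 51.5% ± 3.77 of their summed level on col1 and 60.4% ± 3.80 on col1-ACLP, and Itga10 made up 42.8% ± 6.06 and 27.0% ± 2.38. Itga11 made up 5.29% ± 3.14 on col1 and 12.3% ± 3.49 on col1-ACLP. On col1-ACLP+SB the shares were 55.9% ± 4.41 for Itga1, 33.9% ± 6.55 for Itga10 and 9.82% ± 2.56 for Itga11. Per kb of 1 coding transcript, Itga1 made up 63.4% ± 3.60 on col1 and 71.5% ± 3.22 on col1-ACLP, and Itga10 made up 32.5% ± 5.14 and 19.7% ± 1.85. Of the exonic bases of Itga10, 33.5% are also exons of Gm42957 on the same strand, which had 24 counts in all 12 libraries where Itga10 had 2715. How the counting treated reads in these shared exons is not given in the sources used here. If such reads were given to neither gene, Itga10 is undercounted, so its level, its place below Itga1 and its share of the 4 subunits are uncertain.

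The comparison of col1-ACLP with col1 asks how ACLP in the collagen changes the receptors' transcripts. The integrin subunits Itgb1, Itga1 and Itga11 rose, and the other collagen receptors Ddr2 and Mrc2 fell. The changes were small for the abundant receptors, from 1.13-fold for Itgb1 to 0.827-fold for Mrc2, and 2.79-fold for Itga11, whose mean CPM was above that of 27.0% of tested genes. With edgeR's quasi-likelihood test and Benjamini-Hochberg adjustment over all 16465 tested genes, 5 of the 7 tested receptor genes had an adjusted p under 0.05, 3 higher and 2 lower, where 17.9% of all tested genes had one (9.52% higher and 8.41% lower). With a log2 fold change beyond 0.58 as well, the size threshold of the study's methods, Itga11 alone was called, where 4.97% of all tested genes were. That call was lost without col1-ACLP replicate 1 (adjusted p = 0.0559, same edgeR test). The libraries of both groups did not overlap in 6 of the 7 genes, where 21.2% of all tested genes had no overlap. Itga2 was not tested because its counts were too low. In size, the log2 fold change had a median of 0.27 over the 7 genes and of 0.19 over all tested genes. In bulk RNA, fewer cells with a transcript and less of it per cell cannot be told apart.

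**Figure D2:**
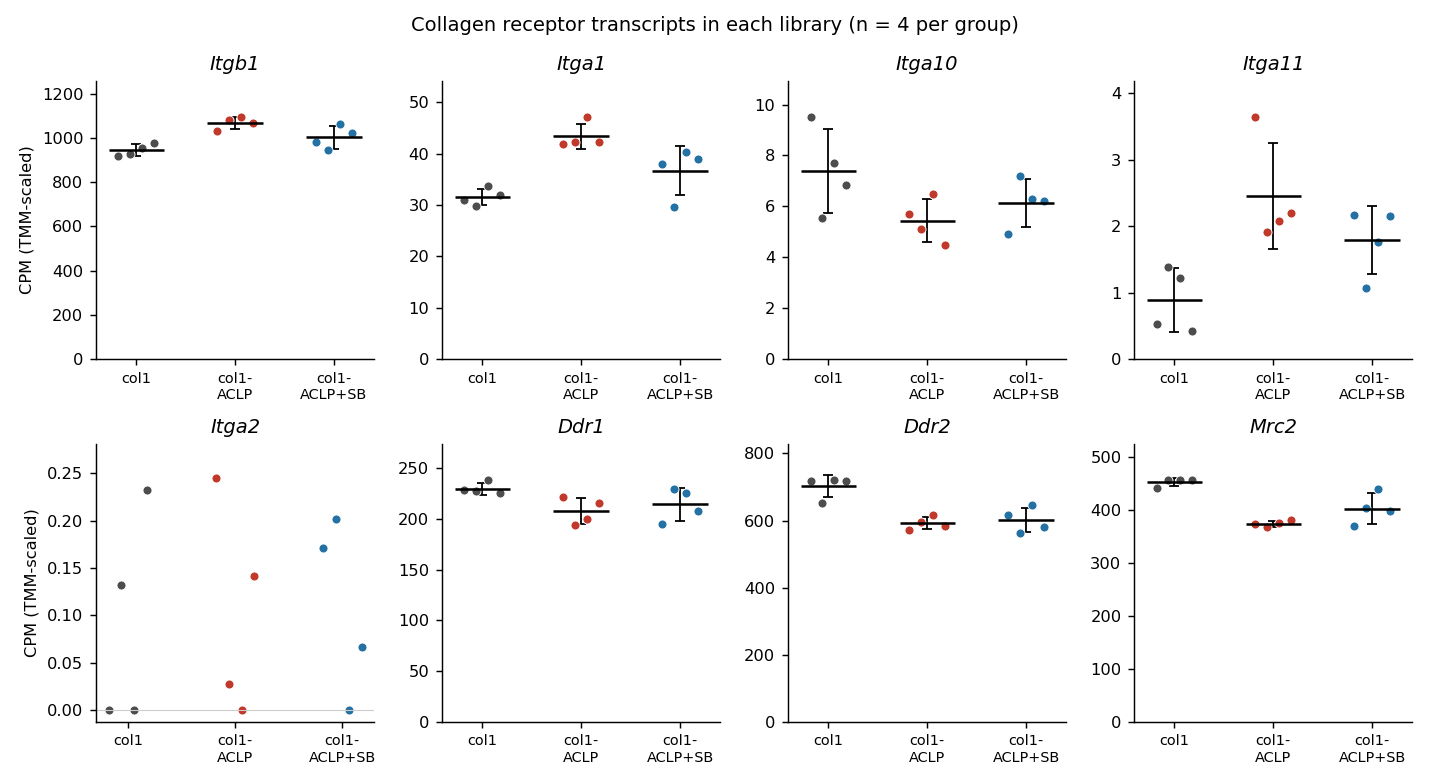
CPM (TMM-scaled) of the 8 collagen receptor genes in each of 12 libraries, 1 panel per gene with its own axis, coloured by group; horizontal lines are group means and error bars are SDs of 4 libraries, left out for Itga2, which is at 0 in 4 libraries. All col1-ACLP points lie above all col1 points for Itgb1, Itga1 and Itga11, and below them for Ddr1, Ddr2 and Mrc2.

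Itgb1 (ENSMUSG00000025809, chr8:129412135-129459681 on the plus strand of GRCm39), the β1 subunit shared by all collagen-binding integrins, had 917, 927, 954 and 978 CPM in col1 replicates 1 to 4, and 1029.6, 1081, 1094 and 1069 in col1-ACLP replicates 1 to 4. In col1-ACLP+SB it had 979.9, 946, 1064 and 1023 CPM. The lowest col1-ACLP library lay above the highest of col1, and the col1-ACLP+SB libraries overlapped with both groups. The mean was 944 ± 27.4 CPM for col1, 1068 ± 27.7 for col1-ACLP and 1003 ± 51.5 for col1-ACLP+SB. Between col1-ACLP and col1 the log2 fold change was 0.18 (SE 0.0412, 95% interval 0.093 to 0.263, adjusted p = 0.00261 by the edgeR test). Its exons overlap with those of no other gene in the annotation.

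Itga1 (ENSMUSG00000042284, chr13:115089632-115238500, minus strand) encodes the α1 subunit, whose pair with β1 binds type IV as well as type I collagen. Its levels were 31.0, 29.9, 33.6 and 31.9 CPM in col1, 41.9, 42.3, 47.1 and 42.2 in col1-ACLP, and 37.9, 29.6, 40.3 and 39.0 when SB431542 was added. The col1-ACLP libraries were the 4 highest of the 12, and 3 of the 4 col1-ACLP+SB libraries were above all col1 libraries while replicate 2 was below them. From 31.6 ± 1.57 CPM on col1 the mean rose to 43.4 ± 2.48 on col1-ACLP, at a log2 fold change of 0.46 (SE 0.0851, 95% interval 0.280 to 0.631, adjusted p = 2.87e-04, same edgeR test). It was 36.7 ± 4.81 CPM on col1-ACLP+SB. Of the exonic bases of Itga1, 10.2% lie opposite to exons of Mocs2 and 3.21% are exons of Gm49395 on the same strand, so some reads could belong to those genes.

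Itga11 (ENSMUSG00000032243, chr9:62585108-62691264, plus strand) encodes the α11 subunit, a fibroblast receptor for type I collagen. It had 20, 52, 40 and 18 counts in the col1 libraries, 119, 69, 62 and 62 in the col1-ACLP libraries, and 76, 32, 91 and 65 in the col1-ACLP+SB libraries. In CPM these were 0.522, 1.38, 1.21 and 0.418, then 3.64, 1.91, 2.07 and 2.20, and then 2.16, 1.07, 1.76 and 2.15. The lowest col1-ACLP library was above the highest col1 library, and the col1-ACLP replicate 1 library stood well above its group. The log2 fold change was 1.48 (SE 0.395, 95% interval 0.664 to 2.30, adjusted p = 0.00877, same edgeR test), from 0.883 ± 0.483 to 2.45 ± 0.797 CPM. With each library left out it ran from 1.23 to 1.79, the latter without col1 replicate 2 (adjusted p = 0.00298, same edgeR test). Without col1-ACLP replicate 1 it was 1.23 and the adjusted p was 0.0559, so the call rests on that library. The replicates on col1 spread by 54.7% of their mean, where counting error alone would give 17.5%. The primers that the study lists for RT-qPCR of Itga11 are shown to mark which part of the transcript its own assay reads, which no value here uses.
Itga11 forward primer: tgccccaatggaaaccaatg
Itga11 reverse primer: cactcgtgcgaccagagag

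Both primers matched the Itga11 transcript once, the forward primer at chr9:62634900-62634919 in exon 3 and the reverse primer at chr9:62639374-62639392 in exon 5, for an amplicon of 210 bases that ends before the exon of the adhesion site shown above.

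Itga10 (ENSMUSG00000090210, chr3:96552900-96571835, plus strand) encodes the α10 subunit, known for cartilage and mesenchymal progenitors. It had 9.50, 5.56, 7.71 and 6.86 CPM in col1, 5.71, 5.11, 6.48 and 4.46 in col1-ACLP, and 4.90, 7.18, 6.29 and 6.22 when SB431542 was added. The groups overlap, because col1 replicate 2 lies within the range of the col1-ACLP libraries. The log2 fold change in col1-ACLP was -0.44 (SE 0.180, 95% interval -0.815 to -0.073, adjusted p = 0.0956, same edgeR test), which did not pass. With each library left out it ran from -0.56 to -0.30. It passed without col1 replicate 2 (-0.56, adjusted p = 0.0311) and did not without any other library, where the adjusted p reached 0.337 without col1 replicate 1 (-0.30, edgeR).

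Itga2 (ENSMUSG00000015533, chr13:114969617-115068636, minus strand) encodes the α2 subunit, the collagen-binding integrin subunit of platelets and many epithelia. It had 0, 5, 0 and 10 counts in col1, 8, 1, 0 and 4 in col1-ACLP, and 6, 6, 0 and 2 when SB431542 was added. In the 4 libraries at 0, a count of 3 would be from 0.0575 to 0.0987 CPM before TMM scaling. Levels below that can be missed at this depth, although single libraries here did hold 1 or 2 counts. No group stood apart, and with no filter on low counts the adjusted p was 1 in each of the 3 comparisons (edgeR).

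Ddr2 (ENSMUSG00000026674, chr1:169799876-169938331, minus strand), the discoidin domain receptor of mesenchymal cells and a receptor for fibrillar collagens, had 717, 653, 721 and 718 CPM on col1. It had 573, 595, 617 and 584 CPM in the col1-ACLP libraries and 617, 563, 645 and 581 in those of col1-ACLP+SB. Each of the 8 libraries with ACLP was below each of the col1 libraries. The mean fell from 702 ± 32.9 CPM to 592 ± 18.9 on col1-ACLP, at a log2 fold change of -0.25 (SE 0.0470, 95% interval -0.342 to -0.149, adjusted p = 3.83e-04, same edgeR test).

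Mrc2 (ENSMUSG00000020695, chr11:105183469-105241965, plus strand) had 440.2, 456, 456 and 455 CPM in col1, 372, 367, 375 and 380.1 in col1-ACLP, and 369, 403, 439.5 and 397 when SB431542 was added. The col1 libraries lie close together and above the 8 others, and those of col1-ACLP+SB spread the most. The mean fell from 452 ± 7.73 to 373 ± 5.52 CPM on col1-ACLP, with a log2 fold change of -0.27 (SE 0.0467, 95% interval -0.371 to -0.178, adjusted p = 9.46e-05, same edgeR test).

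Ddr1 (ENSMUSG00000003534, chr17:35992459-36015513, minus strand), the discoidin domain receptor best known from epithelia, had 228, 227, 238 and 225 CPM in col1, 221, 194, 200.1 and 216 in col1-ACLP, and 195, 229.5, 225 and 207 when SB431542 was added. All col1-ACLP libraries were below all col1 libraries by a narrow margin. The log2 fold change was -0.14 (SE 0.0549, 95% interval -0.257 to -0.031, adjusted p = 0.0731, same edgeR test) and did not pass. In 4 of 17 alternative settings it did, among them DESeq2 (adjusted p = 0.0483) and scaling by library size alone (log2 fold change -0.20, adjusted p = 0.00887).

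Because Itgb1 was higher and Ddr2 and Mrc2 were lower, ratios to Itgb1 moved further than these genes alone. The ratios restate the changes given above and are no separate result, and Ddr1, which is part of them, did not pass. Per length, Ddr1 and Ddr2 together amounted to 53.6% ± 1.88 of the level of Itgb1 on col1 and to 41.1% ± 1.38 on col1-ACLP. Mrc2 amounted to 29.3% ± 0.656 and 21.4% ± 0.652 of it. On col1-ACLP+SB these shares were 44.7% ± 1.89 and 24.5% ± 1.37. Per kb of 1 coding transcript the discoidin domain receptors amounted to 73.4% ± 2.55 on col1 and 56.4% ± 1.99 on col1-ACLP, and Mrc2 to 35.9% ± 0.804 and 26.2% ± 0.799. Per kb of gene length the libraries of col1-ACLP, from 39.6% to 42.9% for the discoidin domain receptors, lie below those of col1, from 51.97% to 55.7%. On the same scale Ddr2 stayed between 1.26 and 1.64 times the level of Ddr1 in all 12 libraries, and per kb of 1 coding transcript between 1.16 and 1.51 times.

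**Figure D3:**
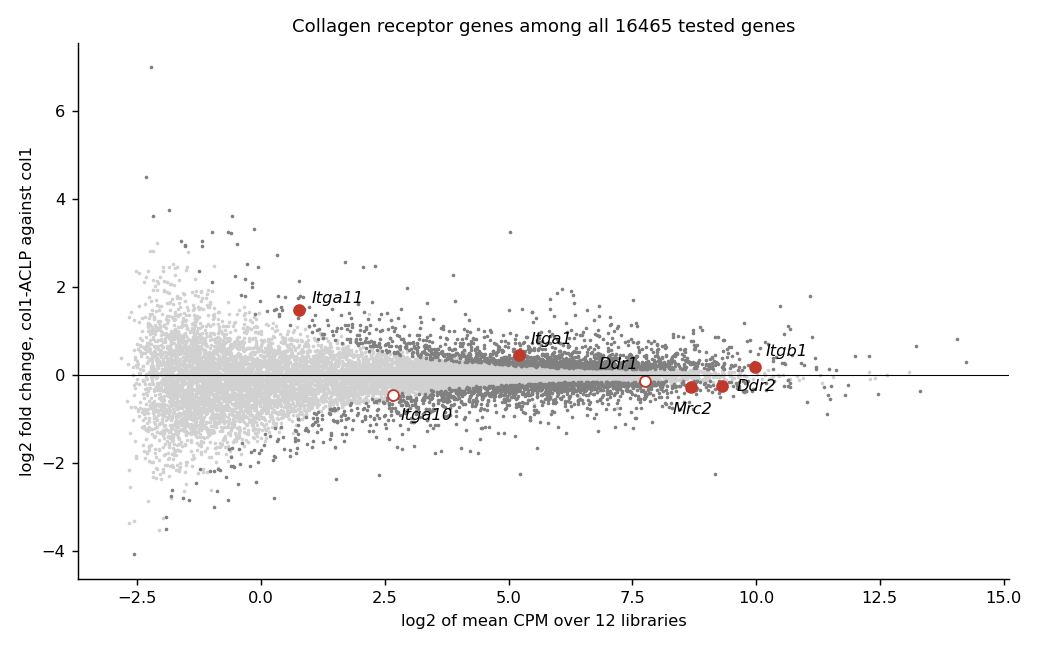
Log2 fold change of col1-ACLP against col1 for all 16465 tested genes over the log2 of their mean CPM in 12 libraries; dark grey points have an adjusted p under 0.05, and the 7 tested collagen receptor genes are named, filled where the adjusted p is under 0.05. Itga11 lies at 1.48 among genes of low level, and Itgb1, Ddr2 and Mrc2 lie between -0.27 and 0.18 among genes of high level.

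The comparison of col1-ACLP+SB with col1 asks what is seen when ALK5 is inhibited during exposure to ACLP, and it shares the 4 col1 libraries with the comparison above. Ddr2 and Mrc2 fell here too, and no integrin subunit passed the test. Of the 7 tested genes 2 had an adjusted p under 0.05, both lower, where 9.13% of all tested genes had one (4.6% higher and 4.54% lower), and 2 had no overlap between the groups, where 13% of all tested genes had none. Ddr2 had a log2 fold change of -0.22 (SE 0.0469, adjusted p = 0.00198, same edgeR test), from 702 ± 32.9 to 602 ± 36.7 CPM. For Mrc2 it was -0.17 (SE 0.0467, adjusted p = 0.0211, same edgeR test), from 452 ± 7.73 to 402 ± 28.9 CPM. The call of Mrc2 was lost without col1 replicate 3 (adjusted p = 0.0591), col1 replicate 4 (0.0570), col1-ACLP+SB replicate 1 (0.111) or col1-ACLP+SB replicate 4 (0.0606), and its log2 fold change then stayed between -0.16 and -0.13.

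The estimates of the 3 integrin subunits that rose on col1-ACLP were above 0 here without passing. Itgb1 had a log2 fold change of 0.088 (95% interval 0.0027 to 0.173, adjusted p = 0.230 by the edgeR test). Itga1 had 0.22 (95% interval 0.042 to 0.393, adjusted p = 0.127), and without col1-ACLP+SB replicate 2, the library with the lowest Itga1, it had 0.31 with an adjusted p of 0.00853. Without any other library Itga1 did not pass, and with each left out its estimate ran down to 0.17 and its adjusted p up to 0.338, without col1-ACLP+SB replicate 3. For Itga11 the estimate was 1.02 (95% interval 0.209 to 1.84, adjusted p = 0.121), and without col1 replicate 2 it was 1.33 with an adjusted p of 0.0435. Without any other library Itga11 did not pass, and with each left out its estimate ran down to 0.79 and its adjusted p up to 0.303, without col1 replicate 4. Ddr1 (-0.099, adjusted p = 0.334) and Itga10 (-0.27, adjusted p = 0.450) did not pass either.

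The direct comparison of col1-ACLP+SB with col1-ACLP tests the effect of the inhibitor on cells that all had ACLP. None of the 7 tested receptor genes had an adjusted p under 0.05 by edgeR, and none had one with DESeq2 or limma-voom, where 1.48% of all tested genes had one by edgeR. The unadjusted p was under 0.05 for 3 of the 7, where it was for 12.8% of all tested genes. Itga1 was lower in every col1-ACLP+SB library than in every col1-ACLP library and was the only one of the 7 with no overlap, where 8.17% of all tested genes had none. Its log2 fold change was -0.24 (SE 0.0848, 95% interval -0.413 to -0.063, unadjusted p = 0.00963, adjusted p = 0.189, edgeR). Itgb1 had -0.090 (95% interval -0.175 to -0.0053, adjusted p = 0.346) and Mrc2 0.11 (95% interval 0.010 to 0.203, adjusted p = 0.321).

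The intervals limit how large an effect of the inhibitor these libraries would leave unseen. For Ddr2 the interval ran from -0.074 to 0.120 around an estimate of 0.023, and for Ddr1 from -0.069 to 0.158 around 0.045. For Itga10 it ran from -0.199 to 0.548. Itga11 had -0.46 with an interval from -1.24 to 0.331 (adjusted p = 0.712, edgeR) and so holds 0 as well as values nearly as large as the rise on col1-ACLP. The unadjusted intervals of Itga1 and Itgb1 given above exclude 0, but neither gene passed after adjustment over all tested genes. That Itgb1, Itga1 and Itga11 passed in col1-ACLP and not in col1-ACLP+SB does not by itself show that the groups differ.

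**Figure D4:**
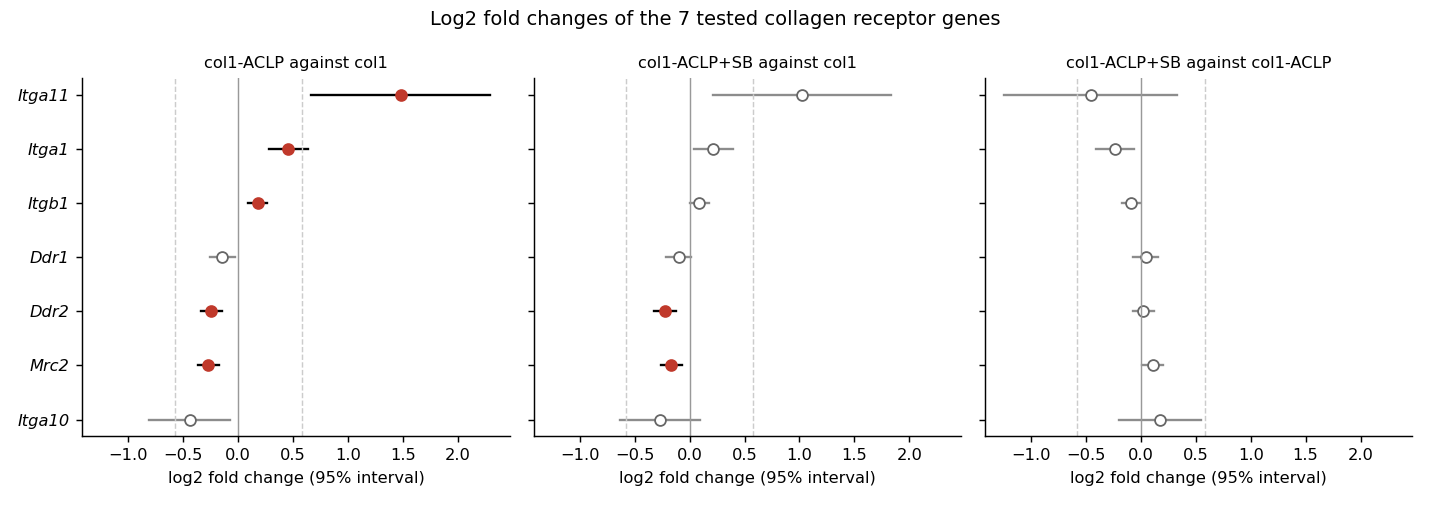
Log2 fold changes with 95% intervals (edgeR) of the 7 tested collagen receptor genes in 3 comparisons, filled where the adjusted p is under 0.05; dashed lines mark a size of 0.58. In col1-ACLP against col1, 5 genes are filled and Itga11 alone lies beyond a dashed line while filled, and in col1-ACLP+SB against col1-ACLP none is filled.

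Promoters are shown for Itgb1 and Itga11, the most and the least abundant of the genes that rose. They are printed from RefSeq on GRCm38.p6, 250 bases up to the start site on the plus strand. Their positions are chr8:128685404-128685653 for Itgb1 and chr9:62677605-62677854 for Itga11, with 68.0% and 68.4% G and C. Itga1, which also rose, had 57.6%, and the median of all promoters was 52.4%. The printed sequences were not aligned with each other. Capitals mark matches on either strand to letters searched as CAGACA (a SMAD-binding element), GGAATG (TEAD) or GGGCGG (SP1). TGANTCA (AP-1) and the CArG box of serum response factor were searched as well.
Itgb1 promoter: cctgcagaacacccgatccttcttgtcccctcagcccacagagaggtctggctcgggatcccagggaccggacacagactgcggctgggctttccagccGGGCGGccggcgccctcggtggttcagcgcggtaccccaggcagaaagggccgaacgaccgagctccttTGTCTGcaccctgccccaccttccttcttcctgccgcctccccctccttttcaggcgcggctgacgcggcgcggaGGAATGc
Itga11 promoter: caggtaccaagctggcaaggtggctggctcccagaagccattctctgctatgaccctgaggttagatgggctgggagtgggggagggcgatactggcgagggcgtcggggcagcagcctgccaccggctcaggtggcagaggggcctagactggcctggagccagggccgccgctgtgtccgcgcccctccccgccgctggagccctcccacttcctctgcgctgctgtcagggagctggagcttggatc

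The Itgb1 window holds 1 SP1 match at -151, 1 SMAD match at -82 and 1 TEAD match at -7 from the start site, and the Itga11 window holds none of the 5. Of genes that did not rise, Itga2 (SMAD), Itga10 (TEAD) and Ddr1 (SMAD, AP-1 and SP1) held matches, and Ddr2 held none. Itga1, which rose, held none. Among 32851 mouse promoters of this length, 32.7% held the SP1 letters, 17.1% the SMAD letters, 12.6% the TEAD letters, 6.75% the AP-1 letters and 1.47% a CArG box. No match says only that these letters are not in this window, and a match is a description of letters and not a binding site.

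The genes that act with these receptors were described by 8 lists. The list of collagens, which the receptors bind, held the largest share of genes past the test. Beside the counts below, 17.9% of all tested genes passed in col1-ACLP against col1, 9.13% in col1-ACLP+SB against col1 and 1.48% in col1-ACLP+SB against col1-ACLP. Of 15 tested collagen genes 11 rose and 2 fell on col1-ACLP, with a median log2 fold change of 0.48 against -0.0099 over all tested genes, and the largest were Col8a1 (3.25), Col2a1 (1.80), Col10a1 (1.13) and Col5a1 (0.93). On col1-ACLP+SB 10 were higher and 2 lower than on col1, and against col1-ACLP 5 were lower, among them Col8a1 (-0.66) and Col2a1 (-0.37).

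Of 7 tested other α partners of Itgb1, 2 rose and 1 fell on col1-ACLP. Itga6 (0.68), a laminin-binding subunit, and Itgav (0.36), the αV subunit of fibronectin and vitronectin receptors, rose, and Itga7 (-0.56), a laminin-binding subunit of muscle, fell. Itga6 was lower on col1-ACLP+SB than on col1-ACLP (-0.34, adjusted p = 0.00986, edgeR), the only change of this list in that comparison. Of 14 tested activators and inhibitors, 3 rose and 1 fell on col1-ACLP: Slc3a2 (0.32), which binds the tail of β1, Flna (0.23), a filamin that competes with talin, Fermt2 (0.16), a kindlin that activates integrins, and Nisch (-0.13), which fell.

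Of 24 tested adaptors and kinases of β1 adhesions, 6 rose and 5 fell on col1-ACLP. Cav1 (1.20), the caveolin that links integrins to Src kinases, and Lims2 (0.69), a partner of integrin-linked kinase, had the largest rises, and Tns1 (-0.54), a tensin, and Ptk2b (-0.49), a focal adhesion kinase relative, the largest falls. Cav1 (-0.48) and Lims1 (-0.21) were lower on col1-ACLP+SB than on col1-ACLP. Among 12 tested genes of integrin traffic, Hax1 rose (0.33) and Dab2 (-0.19), an endocytic adaptor, fell, a share near the 17.9% of all tested genes. Ilk itself was not tested, with 81 counts in all 12 libraries, and 90.4% of its exonic bases lie in exons of genes on the other strand.

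For the discoidin domain receptors, 13 genes of signalling and shedding were tested, of which 1 rose and 4 fell on col1-ACLP. Mmp14 (-0.49), the membrane protease that cleaves DDR1, Pik3r1 (-0.26), a regulatory subunit of PI3 kinase, and Nck2 (-0.24), an adaptor, fell, and Myh9 (0.28), a nonmuscle myosin that binds DDR1, rose. Of 12 tested genes of collagen uptake with Mrc2, 2 rose and 4 fell. Plau (-0.69), the urokinase that forms a complex with Mrc2 and its receptor, Mmp14 again and Ctsb (-0.24), a lysosomal protease, were among those that fell, and Ctsl (0.40), another lysosomal protease, rose. Among 9 other collagen-binding receptors only 2 were tested, Cd44 (-0.15, adjusted p = 0.123) and Adgrg1 (-0.60, adjusted p = 0.461, both edgeR), and Gp6, the platelet collagen receptor, had no count.

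**Figure D5:**
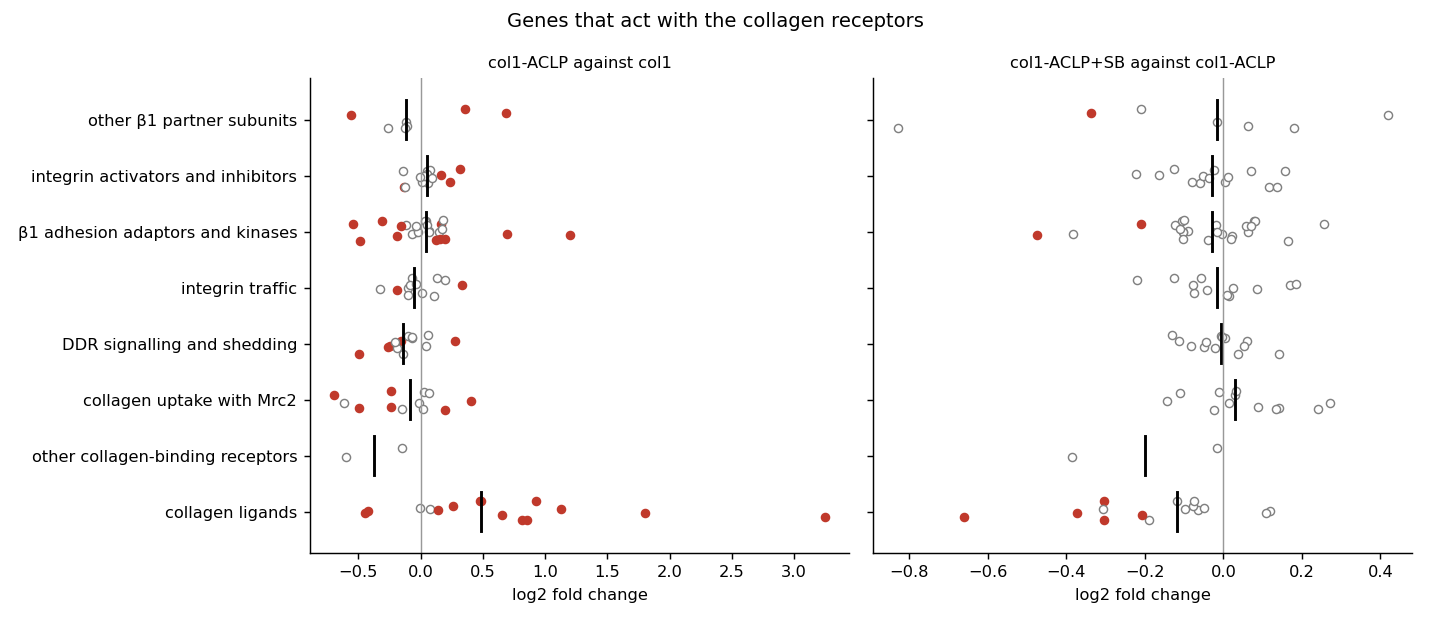
Log2 fold changes of the tested genes in 8 lists of genes that act with the collagen receptors, in col1-ACLP against col1 (left) and col1-ACLP+SB against col1-ACLP (right), with different scales; 1 point per gene, filled where the adjusted p is under 0.05, and the black bar is the list's median. The median of the collagen ligands is 0.48 on the left, and those of the other lists lie between -0.38 and 0.048.

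Likeness of pattern was measured over the 12 libraries as the root mean square difference of log2 CPM, each gene centred on its own mean, without a test, and the 3 nearest tested genes were taken for each receptor. Nearest to Itgb1 were Mbnl2 (0.034), Tlk1 (0.035) and Tm9sf1 (0.036), where Itgb1 itself varied by 0.086 about its mean. Those of Ddr2, which varied by 0.13, were Acadsb, Dab2 and Vps13c (0.050 each). Mrc2, which also varied by 0.13, had Zcchc24 (0.046) and Gsn (0.048) among its 3 nearest, and Ddr1, which varied by 0.095, had Mapk3 (0.045) and Snx33 (0.046). For Itga1, which varied by 0.22, they were Spcs3 (0.068), Megf9 (0.070) and Itgav (0.071), the last of these an integrin subunit itself. For Itga10 the differences, from 0.14 for Mxd1 to 0.16 for Caprin2, were a larger part of its own 0.29 than for the receptors above, and for Itga11, which varied by 0.82, they ran from 0.41 for Ccdc103 to 0.44 for Mpp7.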

How the data were processed

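Poly(A) RNA of 12 libraries was sequenced by the study as paired-end reads and mapped with HISAT2. The sample records name mm10 and the study's methods GRCm39. Of 56017 genes matched by identifier to the GRCm39 annotation, 92.7% had both ends within 5000 bases on the same chromosome, so coordinates are given as GRCm39. The authors deposited raw counts per gene for 56748 genes, without normalization. The counting tool, its strand setting and its handling of reads at several places are not given in the sources used here, so overlaps of the receptors' exons with other genes are given as a limit, for Itga1 and Itga10 in the report and for the others in the closing section.

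Counts were tested with edgeR 4.0.16 in R 4.3.3 (filterByExpr, 16465 genes kept, TMM factors from 0.966 to 1.02, glmQLFit and glmQLFTest, all 12 libraries, 1 mean per group), with Benjamini-Hochberg adjustment over all tested genes. An adjusted p under 0.05 was the test, and 0.58 the size threshold of the study's methods, which used DESeq2. SEs are the size of the log2 fold change over the square root of F. Intervals are at 95%. The procedure was tested on simulated counts. The common dispersion had a square root of 0.153, and counting error was the largest for Itga2 and Itga11 among the 8 genes. Counting error covers neither culture nor library preparation. The study calls the 4 libraries of a group biological replicates, and the labels do not say whether they came from separate cultures, so p-values measure the spread between these libraries. No pair of replicates was alike within sampling noise (chi-square over its degrees of freedom at least 7.49), so all 12 were kept apart.

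The 8 receptor genes, the gene lists and the markers were chosen with earlier results of these data known. Up to 4 genes per list were named, those with the largest change past the test in col1-ACLP against col1, and up to 2 more in col1-ACLP+SB against col1-ACLP. Alternatives were other size factors, filters, tools (DESeq2 1.42.0, limma 3.58.1), fits, thresholds, a replicate block, each library left out and, chosen after seeing the data, the length of 1 transcript per gene. Sequences were read from GENCODE transcripts, RefSeq promoters (7 of 8 genes had one) and the study's primer list. Some of the genes nearest in pattern to a receptor are not reported here.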

Additional observations from a re-analysis of the deposited data

Results flagged for a closer look

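The highest and lowest library of each group was compared with its neighbours for the 8 receptor genes, 24 groups in all, by Dixon's ratio of the gap to the range at the 95% level, which chance exceeds in about 1 of 20 groups. In 4 of them 1 library stood apart. Ddr2 was low in col1 replicate 2, at 653 CPM, which is still above every library with ACLP. Mrc2 was low in col1 replicate 1, at 440.2 CPM, where the other col1 libraries lie within 1 CPM of each other. Itga1 was high in col1-ACLP replicate 3, at 47.1 CPM. Itga11 was high in col1-ACLP replicate 1, at 3.64 CPM, and its call in col1-ACLP against col1 was lost without that library (adjusted p = 0.0559, edgeR). The log2 fold changes of Ddr2, Mrc2 and Itga1 in col1-ACLP against col1 passed the test with each library left out in turn.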

How the results depend on the processing

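The calls of Itgb1, Itga1, Ddr2 and Mrc2 in col1-ACLP against col1, and of Ddr2 in col1-ACLP+SB against col1, were kept under all 17 alternatives, Itga11 in 16 and Mrc2 in col1-ACLP+SB in 13. Ddr1 in col1-ACLP passed in 4, also with protein-coding genes only (adjusted p = 0.0346) and with only both groups in the fit (0.0397, edgeR). The estimate of Ddr2 in col1-ACLP+SB against col1-ACLP turned to -0.013 without col1-ACLP+SB replicate 3, and with each library left out ran up to 0.053. Of all genes, 819, 376 and 21 were called with the size threshold in col1-ACLP against col1, col1-ACLP+SB against col1 and col1-ACLP+SB against col1-ACLP, and in the same order 2953, 1504 and 243 by the adjusted p alone and 230, 81 and 0 when the change was tested against 0.58 by edgeR's glmTreat. In the last of these comparisons 46 were called with no filter, 43 with DESeq2 and 16 with limma-voom, and 2111 had an unadjusted p under 0.05. With each library left out the counts ran from 723 to 819, 343 to 384 and 10 to 25 (10 without col1-ACLP replicate 4 and 11 without col1-ACLP+SB replicate 4), and those of receptor genes past the test from 4 to 6, 1 to 3 and 0 to 0. The cause was not tested. With library size alone, the share of called genes that were higher in col1-ACLP went from 52.5% to 43.0%, and in col1-ACLP+SB against col1-ACLP from 66.7% to 78.3%. In the latter comparison the balance turned to 38.7% higher by the adjusted p alone, 47.6% with only both groups in the fit, 44.4% without col1-ACLP replicate 1 and 36.4% without col1-ACLP+SB replicate 4. Libraries with the same replicate number did not deviate together (Pearson's r across genes between -0.037 and 0.036), and the numbers are not a pairing. With a replicate block 785, 357 and 17 genes were called, 5, 2 and 0 receptor genes passed the test, and no call of a receptor gene changed.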

Other observations

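The spread between replicates was larger than counting error for each tested receptor in each group. The coefficient of variation of Mrc2 was 1.71% for col1, 1.48% for col1-ACLP and 7.18% for col1-ACLP+SB, where counting alone would give 0.763%, 0.919% and 0.818%. Itga1 spread by 4.98%, 5.72% and 13.1% in the same order, and Ddr1 by 2.55%, 6.11% and 7.52%. The col1-ACLP+SB libraries spread the most for 5 of the 7 tested receptors, these 3 with Itgb1 and Ddr2. For the other 2 the col1 libraries spread the most and those of col1-ACLP+SB the least, with 22.3%, 15.8% and 15.3% for Itga10 and 54.7%, 32.5% and 28.6% for Itga11 in the same order. The difference in spread was not tested.

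Shared exons are a limit on several receptors. Exons of genes on the opposite strand cover 6.92% of the exonic bases of Ddr2 (3110045C21Rik), 7.18% of those of Mrc2 (Gm53649), 2.32% of those of Itga11 (Gm69310) and 6.23% of those of Itga2 (Mocs2). Exons of Gm65944 and Gm4577 on the opposite strand and of Gm23864 on the same strand cover 7.23% of those of Ddr1. Counts of these stretches cannot be given to 1 gene without the strand setting of the counting.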
